A study of Mus musculus with 6 samples.

Results

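The pre-TCR chain and the genes of proximal T cell receptor signalling were examined as a list of 10 genes, namely *Ptcra*, *Cd3e*, *Cd3d*, *Cd3g*, *Cd247*, *Lck*, *Fyn*, *Zap70*, *Lat* and *Lcp2*, grouped by their function in the receptor complex. Of the 12393 genes that the annotation of the array names, 9 were members with a probe set, a probe set being a group of short probes read together as 1 value. *Lck* was not analysed here, since no probe set used here is named for it alone. The 9 genes were read by 15 probe sets.

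RNA was taken from thymocytes, the developing T cells of the thymus, of untreated 3-week-old C57BL6 mice. All mice carried the *Cd3e*-/- genotype, the controls too. By their labels, 3 arrays came from *Cd3e*-/- mice that also carried the oncogene SCL driven by the Sil promoter and the oncogene LMO1 driven by the Lck promoter (SCLtg LMO1tg), and 3 came from *Cd3e*-/- mice without these transgenes (control). The values of *Lmo1* go against these labels. No sort of the thymocytes is described. Separate animals for the 3 arrays of each group are not stated, so each p-value measures the spread between these arrays, which may be technical.

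Before a T cell has a complete receptor, its rearranged β chain pairs with the invariant pre-Tα chain, the product of *Ptcra*, on the CD3 and ζ chains, and the resulting pre-TCR drives thymocytes out of the double negative stage. CD3ε is needed for this complex to form, and *Cd3e*-/- thymocytes stop before the checkpoint. In a complete complex, LCK and FYN phosphorylate the CD3 and ζ tails, ZAP70 binds to them, and the adaptors LAT and SLP-76, the product of *Lcp2*, carry the signal on. *Ptcra* is transcribed in immature thymocytes under E proteins and Notch, and SCL binds E proteins.

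The promoters of *Ptcra* and of the 3 CD3 genes are shown because E proteins bind E boxes and these genes differ in the E boxes they hold near the start. Each stretch runs 5′ to 3′ from 250 bases before the start to 50 bases after it (RefSeq, GRCm38.p6), and capitals mark the E boxes CAGCTG and CACCTG, the latter also as CAGGTG on the other strand.
*Ptcra*, minus strand, chr17:46763663-46763962: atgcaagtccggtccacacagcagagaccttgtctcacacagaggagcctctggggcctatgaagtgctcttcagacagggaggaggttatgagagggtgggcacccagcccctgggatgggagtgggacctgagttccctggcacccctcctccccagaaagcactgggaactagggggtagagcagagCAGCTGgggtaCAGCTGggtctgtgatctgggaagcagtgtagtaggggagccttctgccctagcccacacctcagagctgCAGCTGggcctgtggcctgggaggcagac
*Cd3e*, minus strand, chr9:45009562-45009861: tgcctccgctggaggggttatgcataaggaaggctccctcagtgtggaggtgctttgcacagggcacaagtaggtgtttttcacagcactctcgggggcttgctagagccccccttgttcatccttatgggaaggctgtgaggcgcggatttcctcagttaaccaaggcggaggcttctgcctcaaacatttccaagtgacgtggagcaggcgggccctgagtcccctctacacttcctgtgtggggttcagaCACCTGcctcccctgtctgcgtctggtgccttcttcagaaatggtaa
*Cd3d*, plus strand, chr9:44981536-44981835: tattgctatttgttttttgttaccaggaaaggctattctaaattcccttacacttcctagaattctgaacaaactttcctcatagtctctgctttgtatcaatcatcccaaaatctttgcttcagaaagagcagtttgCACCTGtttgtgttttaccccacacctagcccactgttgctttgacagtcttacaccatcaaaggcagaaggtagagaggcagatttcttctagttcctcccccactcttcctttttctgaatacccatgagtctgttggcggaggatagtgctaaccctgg
*Cd3g*, minus strand, chr9:44980382-44980681: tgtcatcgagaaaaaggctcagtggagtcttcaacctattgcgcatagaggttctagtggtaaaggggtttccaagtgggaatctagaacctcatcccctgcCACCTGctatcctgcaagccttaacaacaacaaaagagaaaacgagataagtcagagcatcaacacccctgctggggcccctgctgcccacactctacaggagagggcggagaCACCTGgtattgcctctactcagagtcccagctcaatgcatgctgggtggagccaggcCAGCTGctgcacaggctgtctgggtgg

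The *Ptcra* window held CAGCTG 3 times, 60 and 49 bases before the start and 22 bases after it, and no CACCTG. At least 3 copies of CAGCTG stood in 0.207% of the 32851 promoter windows of the same length, and at least 1 in 16.3%. The windows of *Cd3e* and *Cd3d* held 1 CACCTG each and no CAGCTG, and that of *Cd3g* held 1 CAGCTG and 2 CACCTG. At least 1 CACCTG stood in 20.2% of all windows and at least 2 in 2.88%. TGGGAA, the core of the site of the Notch partner RBPJ, stood 2 times in the *Ptcra* window, 84 and 32 bases before the start, against 3.79% of all windows with at least 2 copies. Both strands were searched, CAGCTG reads the same on both, and CAGCTG and TGGGAA can share the letters TG. Such matches describe the sequence and show no binding.

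The genes altered by the study's own design were read first. *Lmo1* stood at 5.11, 5.07 and 4.86 in the arrays labelled SCLtg LMO1tg and at 6.64, 6.84 and 6.77 in the arrays labelled control, as log2 values. The groups did not overlap, and the gene of a transgene was lower in the arrays that carry its label, by −1.74 (SE 0.14, adjusted p = 0.00161 from limma). The values in the arrays labelled SCLtg LMO1tg lay just below the 40th percentiles of those arrays, at 5.17, 5.10 and 5.05. No source used here says whether the *Lmo1* probes read the transgenic transcript. *Tal1*, the gene of SCL, did not pass the filter on low values, which asked for 3 or more arrays at or above their own 40th percentile, and read 4.55 to 4.71 in the arrays labelled SCLtg LMO1tg and 4.27 to 4.44 in those labelled control. All differences are the arrays labelled SCLtg LMO1tg minus the arrays labelled control, with the labels as they stand. The directions found for *Ptcra*, *Lyl1* and *Cdkn1a* are opposite to those in the study's table of altered genes. By qRT-PCR in purified double negative thymocytes, separate from that table, the study also reports *Lyl1* raised by SCL and LMO1. The *Lyl1* direction found here is opposite to that as well. In the same kind of cells, the study reports that activation of *Nfe2* required SCL to interact with LMO1. Here *Nfe2* was lower in the arrays labelled SCLtg LMO1tg, by −1.44 (SE 0.17, adjusted p = 0.0154 from limma). Whether the labels were exchanged or the table's sign turned was not tested, and every direction given depends on the labels.

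The 6 arrays had medians of 5.57 to 5.70 and correlated with each other at 0.969 to 0.994 across probe sets. Bacterial hybridization controls, RNA added in the laboratory and read by 18 probe sets, split the arrays into a high set (SCLtg LMO1tg replicate 1 with control replicates 2 and 3, means of 10.40 to 10.62) and a low set (the other arrays, 8.91 to 9.49). Because each set held both labels, differences within the sets are given beside the results. For *Gapdh*, the 3′ minus 5′ signal, which grows as RNA breaks down, was 3.24 ± 0.23 in the arrays labelled SCLtg LMO1tg and 2.85 ± 0.42 in the others (SD, n = 3 each, exact permutation p = 0.3). The mean of 14 neutrophil markers moved with the labels, at 6.42 to 7.06 in the arrays labelled SCLtg LMO1tg and 5.59 to 6.22 in those labelled control. Of the 14, 0 passed limma and 7 had an unadjusted p under 0.05 (8.97% of all genes). Groups did not overlap for 7 (13.7% of all genes). *Cxcr2*, *Elane*, *Csf3r*, *Mmp8* and *Mmp9* differed by only −0.14 to 0.002. The part of the neutrophil markers in the results of the members was not tested.

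Among the 12 member probe sets that passed the filter on low values, 1 rose, that of *Ptcra*, 0 fell and 11 did not pass. Over all 13776 probe sets tested, 0.102% passed in either direction and 0.0508% were higher, at an adjusted p under 0.05 from limma. Of the same 12 probe sets, 3 had groups that did not overlap, against 13.2% of all probe sets tested, and 2 had an unadjusted p under 0.05, against 8.86% of all. The median difference over the 12 was −0.06, with 5 differences above 0.

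**Figure D1:**
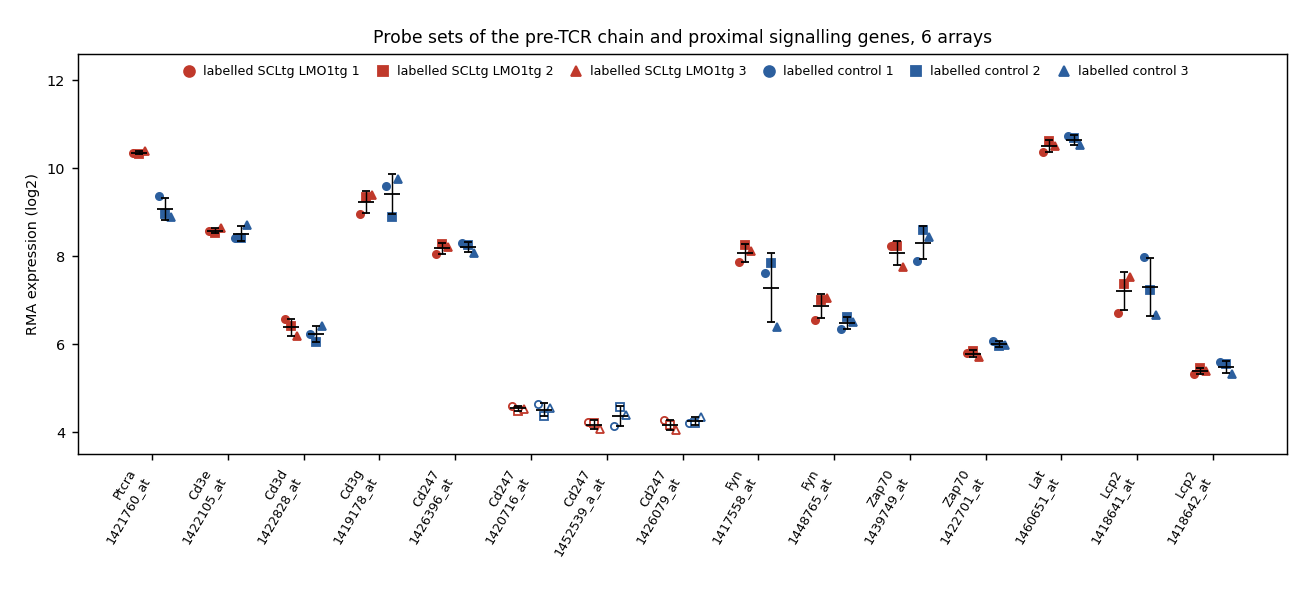
Each point is the RMA expression value (y axis, log2) of 1 member probe set (x axis) on 1 array, red for arrays labelled SCLtg LMO1tg and blue for arrays labelled control, with bars at the mean ± SD (n = 3) and open points for the 3 *Cd247* probe sets below the filter on low values. The red points of *Ptcra* lie between 10.32 and 10.39, above the blue points at 8.90 to 9.36, while the groups of most other members overlap.

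*Ptcra*, whose pre-Tα chain stands in for the α chain before it is rearranged, was the member that rose. Its values were 10.35, 10.32 and 10.39 in the arrays labelled SCLtg LMO1tg and 9.36, 8.96 and 8.90 in the arrays labelled control. All 3 arrays labelled SCLtg LMO1tg were high and close together, and the highest control array lay well below them. The means of 10.35 ± 0.04 and 9.07 ± 0.25 (SD, n = 3 each) differed by 1.28 (SE 0.16, 95% confidence interval 0.92 to 1.64, adjusted p = 0.0230 from limma), or 2.43-fold (1.89 to 3.12). By p-value *Ptcra* ranked 12 of the 13776 probe sets. Within the low and the high hybridization set the difference was 0.99 and 1.42. The study reports that SCL inhibited *Ptcra* in a double negative thymoma line, opposite to the direction found here, which depends on the labels. In purified double negative thymocytes, its qRT-PCR also found E protein target genes inhibited by SCL with LMO1. The caption for that result does not name the genes. In RNA from whole thymocytes, a larger share of cells that express the gene and more RNA per cell cannot be told apart. Among the settings under which the rise did not pass limma were arrays centred on their medians (adjusted p = 0.0629) and the omission of any array except control replicate 1 (0.0613 to 0.194). Over all settings the adjusted p ranged from 0.00127 to 0.194, while the difference stayed between 1.13 and 1.42.

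*Cd3e* encodes the chain disrupted in all of these mice. Its probe set read 8.56, 8.53 and 8.65 in the arrays labelled SCLtg LMO1tg and 8.41, 8.42 and 8.72 in those labelled control. The groups overlapped, both stood well above the array medians, and the difference was 0.07 (SE 0.15, 95% confidence interval −0.27 to 0.40, adjusted p = 0.881 from limma). Within the low hybridization set it was 0.18 and within the high set −0.0040. No source used here says where the probes lie relative to the disrupted part, so the signal checks nothing about the genotype.

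The other chains that carry the receptor's signal did not pass the test. *Cd3g*, for the CD3γ chain, read 8.96, 9.35 and 9.40 against 9.60, 8.90 and 9.76, with control replicate 2 lowest and control replicate 3 highest of all 6 arrays. Its groups overlapped, and the difference was −0.18 (SE 0.23, 95% confidence interval −0.71 to 0.35, adjusted p = 0.792 from limma). *Cd3d*, for the CD3δ chain, lay at 6.18 to 6.57 against 6.06 to 6.43 and differed by 0.15 (SE 0.16, 95% confidence interval −0.22 to 0.52). *Cd247*, for the ζ chain, lay at 8.05 to 8.28 against 8.09 to 8.30 in its probe set above the filter and differed by −0.03 (SE 0.14, 95% confidence interval −0.36 to 0.29). Its 3 probe sets below the filter differed by 0.03, −0.20 and −0.10 in a fit without the filter. Within the low and high hybridization sets *Cd3g* differed by −0.22 and −0.37, *Cd3d* by 0.07 and 0.33, and this probe set of *Cd247* by −0.05 and −0.12. The upper ends of the intervals, at 0.52 at most in the tested probe sets, lie below the lower end of that of *Ptcra*, at 0.92.

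*Fyn*, a Src family kinase that acts beside *Lck*, had the largest difference among the members after *Ptcra*, and it did not pass over all probe sets. The brighter probe set read 7.86, 8.26 and 8.12 in the arrays labelled SCLtg LMO1tg and 7.62, 7.85 and 6.40 in those labelled control. The groups touched without overlapping, and control replicate 3 was far below the other 5 arrays. The difference was 0.79 (SE 0.33, 95% confidence interval 0.04 to 1.54, unadjusted p = 0.0401 and adjusted p = 0.545 from limma), with 0.57 within the low hybridization set and 0.74 within the high set. Without control replicate 3 it was 0.35, and without control replicate 2 it was 1.07. A dimmer probe set of *Fyn* read 6.55, 7.01 and 7.05 against 6.35, 6.62 and 6.50. There SCLtg LMO1tg replicate 1 lay among the controls, and the difference of 0.38 (SE 0.17, 95% confidence interval −0.01 to 0.78, adjusted p = 0.564 from limma) was 0.68 within the low hybridization set and −0.01 within the high set.

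*Zap70*, the kinase recruited to the phosphorylated chains, differed in the other direction without passing. Its dimmer probe set read 5.81, 5.85 and 5.71 in the arrays labelled SCLtg LMO1tg and 6.08, 5.97 and 5.98 in those labelled control. The groups did not overlap, and the difference was −0.22 (SE 0.13, 95% confidence interval −0.52 to 0.08, adjusted p = 0.632 from limma), with −0.30 within the low hybridization set and −0.16 within the high set. Its brighter probe set read 8.22, 8.24 and 7.76 against 7.90, 8.61 and 8.43 and differed by −0.24 (SE 0.22, adjusted p = 0.714 from limma), with 0.10 within the low hybridization set and −0.30 within the high set. There the groups overlapped.

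The adaptors did not pass the test. *Lat*, the membrane adaptor that ZAP70 phosphorylates, lay at 10.36 to 10.63 in the arrays labelled SCLtg LMO1tg and at 10.52 to 10.74 in those labelled control, a difference of −0.15 (SE 0.15, 95% confidence interval −0.47 to 0.18, adjusted p = 0.740 from limma), with −0.17 within the low hybridization set and −0.24 within the high set. *Lcp2*, whose product SLP-76 joins LAT to its effectors, read 6.72, 7.38 and 7.53 against 7.99, 7.23 and 6.68 in its brighter probe set. Both groups spanned wide ranges that overlapped, and the difference of −0.09 (SE 0.33) had an interval of −0.82 to 0.64, among the widest of the members. Within the low and high hybridization sets this probe set differed by −0.54 and −0.23, and by −0.38 when blocked on the set. The other probe set of *Lcp2* also differed by −0.09 (SE 0.14, 95% confidence interval −0.41 to 0.23), or by −0.17 and −0.10 within the sets.

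**Figure D2:**
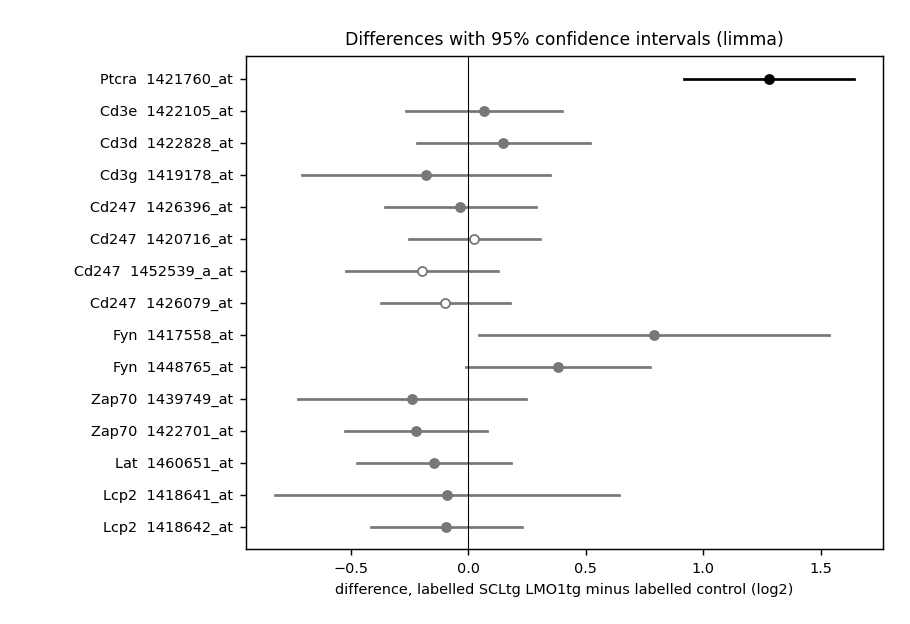
Points give the difference between arrays labelled SCLtg LMO1tg and control (x axis, log2) of each member probe set (y axis), with 95% confidence intervals from limma. The black point is *Ptcra*, the 1 probe set that passed, at 1.28, grey points did not pass, and open points are the *Cd247* probe sets below the filter, read from a fit without it.

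The value of *Ptcra* was also set against those of the chains it assembles with on the same array, where the scaling of the array cancels. *Ptcra* was already known to separate the groups, so these differences are a description, and 3 against 3 arrays cannot give an exact two-sided permutation p under 0.1. *Ptcra* minus the mean of *Cd3d*, *Cd3g* and *Cd247* was 2.49, 2.30 and 2.46 in the arrays labelled SCLtg LMO1tg and 1.32, 1.22 and 0.81 in those labelled control. All 3 values of the first group lay above all 3 of the second, and the difference was 1.30. *Ptcra* minus the mean of the *Fyn*, *Zap70*, *Lat* and *Lcp2* probe sets was 3.08, 2.77 and 2.95 against 1.89, 1.46 and 1.78. These groups did not overlap either, and the difference was 1.22. With 1 array left out the differences ranged from 1.15 to 1.40 and from 1.10 to 1.32. They do not show that the other members did not change.

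**Figure D3:**
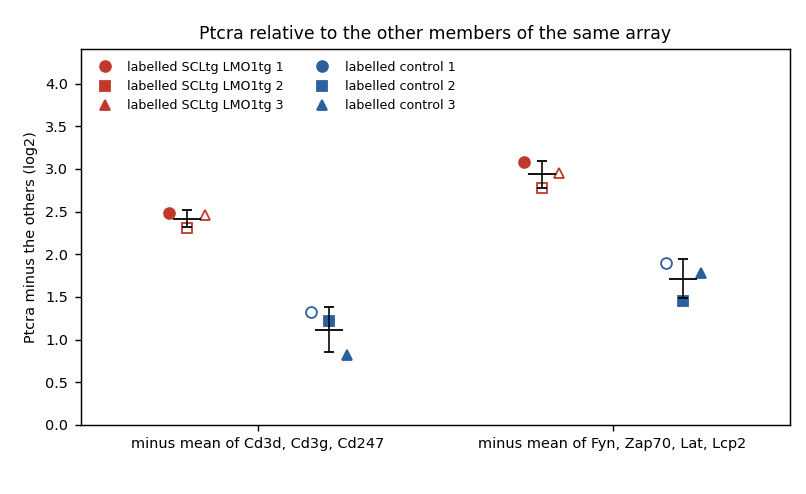
Each point is *Ptcra* minus the mean of other members on the same array (y axis, log2), red for arrays labelled SCLtg LMO1tg and blue for arrays labelled control, filled for the high and open for the low hybridization set, with bars at the mean ± SD (n = 3). The red points lie between 2.30 and 2.49 for the chains and between 2.77 and 3.08 for kinases and adaptors, above the blue points at 0.81 to 1.32 and 1.46 to 1.89.

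Receptor chains, of which only the β chain joins the pre-TCR, were read from the T cell receptor loci. These gave 6 gene segments in 8 tested probe sets, of which 0 passed the test. The median difference over the 6 segments was −0.34. Over all 8693 genes tested the median was −0.0080, 0.138% passed, 8.97% had an unadjusted p under 0.05 and 13.7% had groups that did not overlap. Of the 6 gene segments, 2 had an unadjusted p under 0.05 and 2 did not overlap. *Trbv13-2*, a variable segment of the β locus, read 6.66, 6.72 and 6.78 in the arrays labelled SCLtg LMO1tg and 7.51, 7.16 and 7.47 in those labelled control. It was lower in all 3 of the former arrays, by −0.66 (SE 0.15, adjusted p = 0.243 from limma). *Trbv1*, another segment of the β locus, lay at 10.06 to 10.33 against 10.62 to 10.86, without overlap, and differed by −0.53 (SE 0.15, adjusted p = 0.354 from limma). *Trgv1*, of the γ locus, differed by −0.61 (SE 0.32), and the 2 tested probe sets of *Trgv4* by −0.10 and 0.06. *Trav9d-3*, of the α locus, differed by −0.15 (SE 0.18), or by −0.28 in its other tested probe set. Segments of these loci are near copies of each other, so the names are uncertain.

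Other kinases, adaptors and effectors of the proximal pathway did not pass the test, with 0 of 34 tested genes higher and 0 lower, 3 at an unadjusted p under 0.05 (8.97% of all genes), and a median difference of 0.01. *Grb2*, an adaptor that LAT recruits, read 8.12, 7.98 and 8.07 in the arrays labelled SCLtg LMO1tg and 8.70, 8.68 and 8.64 in those labelled control. It lay lower in all 3 of the former arrays, by −0.62 (SE 0.13, adjusted p = 0.212 from limma), and its other probe set differed by −0.34. *Sos2*, a Ras exchange factor that GRB2 binds, differed by 0.53 (SE 0.33), *Ppp3cb*, a catalytic subunit of calcineurin, by 0.53 (SE 0.22) or −0.18 in its other probe set, and *Pik3cd*, a PI3-kinase subunit, by −0.36 (SE 0.15). *Cd8a*, *Cd8b1*, *Cd2*, *Sos1* and *Plcg1* lay below the filter.

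Inhibitors of the pathway gave 0 of 20 tested genes past the threshold, 2 at an unadjusted p under 0.05 (8.97% of all genes), and a median of −0.03. *Ptpn22*, a phosphatase of LCK and ZAP70, lay at means of 7.08 ± 0.33 and 7.69 ± 0.52 (SD, n = 3 each) and differed by −0.62 (SE 0.27, adjusted p = 0.557 from limma). *Sla2*, an adaptor that lowers surface receptor, lay at 8.04 to 8.13 against 8.34 to 8.68, without overlap, and differed by −0.43 (SE 0.15, adjusted p = 0.455 from limma). *Pag1*, which anchors the inhibitory kinase CSK, differed by 0.47 (SE 0.29) or −0.17 in its other probe set, and the surface receptor gene *Cd6* by −0.31 (SE 0.15). *Cd5*, *Dusp6* and *Sh2b3* lay below the filter.

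Of the genes whose expression follows pre-TCR signalling, 0 of 18 tested passed and 3 had an unadjusted p under 0.05 (8.97% of all genes). Groups did not overlap for 6 (13.7% of all genes), and the median was 0.03, with 10 of 18 differences above 0. The list was not divided by whether the signal raises or lowers a gene, so its median can cancel opposite differences. *Rag1*, which with *Rag2* cuts the receptor loci for rearrangement, read 11.16, 11.26 and 11.71 in the arrays labelled SCLtg LMO1tg and 10.66, 10.59 and 9.95 in those labelled control. The groups did not overlap and differed by 0.97 (SE 0.22, adjusted p = 0.273 from limma). *Rag2* read 7.43, 8.09 and 8.13 against 7.23, 7.22 and 6.72, again without overlap, and differed by 0.82 (SE 0.23, adjusted p = 0.348 from limma). *Dtx1*, a Notch target, differed by 0.38 (SE 0.16) and *Cd27*, a costimulatory receptor gene, by −0.35 (SE 0.20). The early response gene *Egr2*, with *Id3*, *Cd5*, *Cd2*, *Cd8a* and *Cd8b1*, lay below the filter.

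Of 26 tested regulators of *Ptcra* and the CD3 genes, 1 fell, *Lmo1*, and 0 rose (0.138% of all genes passed), with a median of −0.0002. Of the 26, 4 had an unadjusted p under 0.05 (8.97% of all genes) and 5 had groups that did not overlap (13.7%). *Ets2*, an ETS family factor, read 8.50, 9.06 and 8.97 in the arrays labelled SCLtg LMO1tg and 7.75, 7.50 and 7.27 in those labelled control. The groups did not overlap, and the difference of 1.34 (SE 0.19, adjusted p = 0.0588 from limma) missed the threshold. *Lyl1*, a close relative of SCL, read 6.29, 5.75 and 5.92 against 7.40, 7.19 and 7.04 and differed by −1.22 (SE 0.18, adjusted p = 0.0589 from limma), also without overlap. Both passed when each gene was read by 1 probe set, which tested fewer values, and by rank products. The receptor loci, other kinases and adaptors, inhibitors and genes that follow pre-TCR signalling gave 0 by rank products too. *Ets1* differed by 0.49 (SE 0.23), or by 0.19, 0.30 and 0.63 in its other probe sets, and *Fli1* by −0.39 (SE 0.16), or by 0.12 in its other probe set. *Notch1*, the E protein genes *Tcf12* and *Tcf3*, and the E protein inhibitor gene *Id2* differed by 0.13, 0.11, −0.07 and 0.02. The other tested probe sets of *Notch1*, *Tcf12* and *Id2* differed by 0.1, −0.08 and 0.53.

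**Figure D4:**
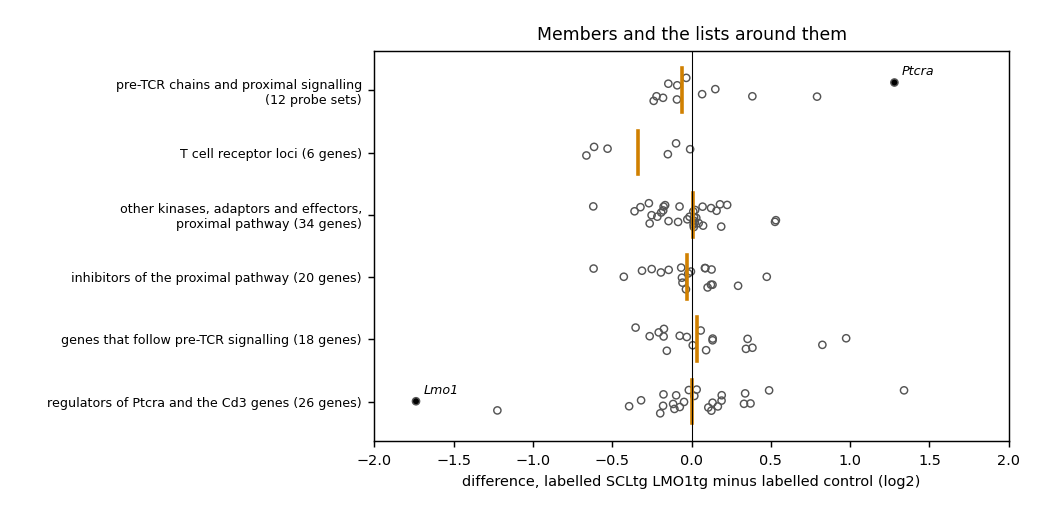
Each point is the difference between arrays labelled SCLtg LMO1tg and control (x axis, log2) of 1 member probe set in the top row and of 1 gene in each list below it, with orange bars at the medians and black points for values that passed limma at an adjusted p under 0.05. *Ptcra* stands at 1.28 and *Lmo1* at −1.74, and the medians lie between −0.06 and 0.03 except that of the T cell receptor loci, at −0.34.

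Markers of the cells that express the members were read beside them. All 12 double negative thymocyte markers on the array passed the filter and 0 passed the test, 4 at an unadjusted p under 0.05 (8.97% of all genes). *Il2ra*, for CD25, differed by 0.01, or by −0.12 in its other probe set. *Il7r*, for the interleukin-7 receptor, differed by 1.20 (SE 0.24, adjusted p = 0.191 from limma), or by 0.56 in its other probe set. Of the later thymocyte markers, *Cd8a*, *Cd8b1*, *Ccr7* and *Foxp3* lay below the filter, *Cd4* stood at 5.36 ± 0.11 against 5.63 ± 0.15 (SD, n = 3 each), and the mean over the 5 tested genes was 5.85 to 6.02 in the arrays labelled SCLtg LMO1tg and 6.24 to 6.38 in those labelled control, with 0 passing. NK and innate lymphoid markers, which mark other cells that use ζ, ZAP70, LAT and SLP-76, had mean levels of 6.93 to 7.16 against 6.76 to 6.99, with 0 of 9 passing and *Ncr1* and *Klra8* below the filter. Markers of γδ T cells gave 0 of 4 past the threshold, with mean levels of 6.49 to 6.62 against 6.64 to 6.67. The γδ markers went both ways, with 2 of 4 differences above 0 and a median of −0.05. Markers of B cells gave 0 of 8, with mean levels of 5.81 to 6.002 against 6.11 to 6.36 and *Pax5* below the filter. The mean levels of both lists, like those of the later thymocyte, neutrophil and mast cell lists, did not overlap between the groups. Each of these lists had an exact permutation p of 0.1, the smallest that 3 against 3 arrays can give. Single genes without overlap numbered 4 of 12 double negative, 2 of 5 later thymocyte, 4 of 9 NK, 2 of 8 B cell and 0 of 4 γδ markers (13.7% of all genes). Such genes also numbered 7 of 14 neutrophil, 2 of 6 erythroid, 1 of 6 mast cell and 1 of 13 macrophage and dendritic cell markers. Markers of macrophages and dendritic cells gave 0 of 13. Erythroid markers gave 0 of 6, 2 at an unadjusted p under 0.05 (8.97% of all genes), with a median difference of 0.45. Mast cell and basophil markers gave 1 of 6 (0.138% of all genes), *Cpa3*, which fell by 2.53 (SE 0.16). The mean levels of the 6 were 6.14 to 6.26 against 6.67 to 6.87. The other 5 genes differed by −0.23 to −0.11, each with groups that overlapped. *Ms4a2* and *Fcer1a* lay below the filter. The part of these cells in the values of the members was not tested.

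Genes with the profile most like that of *Ptcra* were found by the root mean square distance between profiles over the 6 arrays, each centred on its own mean. The nearest of the tested genes were *Cdkn1a*, the cell cycle inhibitor gene of p21, at a distance of 0.105, *Rfc4*, for a subunit of the clamp loader of DNA replication, at 0.151, *Fabp5*, for a fatty acid binding protein, at 0.183, *Ets2* at 0.186 and *Shcbp1*, for a protein of dividing cells, at 0.228, all on the log2 scale. *Cdkn1a* read 8.86, 8.61 and 8.82 against 7.95, 7.55 and 7.35. Like *Ptcra* it was high in all 3 arrays labelled SCLtg LMO1tg, with control replicate 1 the highest of the controls. The study places *Cdkn1a* among its down-regulated genes, opposite to the direction found with these labels. The differences of the 5 genes, in this order, were 1.14, 1.08, 1.21, 1.34 and 1.01, and none passed limma over all probe sets (adjusted p = 0.0890, 0.120, 0.166, 0.0588 and 0.168). Since the profile of *Ptcra* chose them, their differences are a description.

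**Figure D5:**
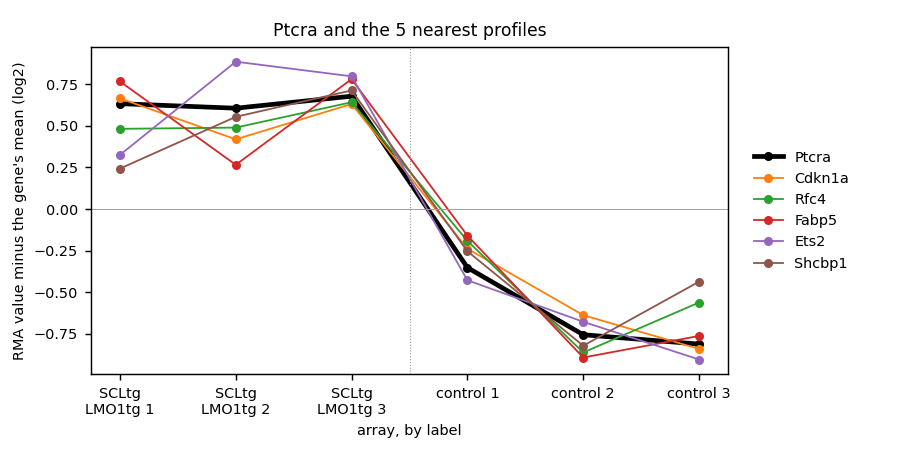
Each line joins the values of 1 gene on the 6 arrays (x axis, by label), as the RMA value minus that gene's own mean (y axis, log2), in black for *Ptcra* and in colour for its 5 nearest profiles. All 6 genes lie above 0 in the arrays labelled SCLtg LMO1tg and below 0 in those labelled control, with control replicate 1 the highest control for each gene.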

How the data were processed

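Thymocyte RNA was measured on 6 Affymetrix mouse arrays, 3 per group. The authors deposited log2 values that they had computed with RMA (affy package, version not given in the sources used here), 1 for each of 22690 probe sets on each array, from 2.36 to 14.1. RMA places all arrays on a common distribution, which can hide a shift of most genes. The authors' MAS5 absent calls are not used here. The number of arrays limits the precision.

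By the platform annotation, 20393 probe sets read 1 named gene, 691 several and 1606 none, with 64 controls. A probe set was kept if 3 or more of the 6 arrays reached that array's 40th percentile, which left 13776. Groups were tested with limma 3.58.1 (R 4.3.3) without covariates, two-sided, at a Benjamini-Hochberg adjusted p under 0.05 over all kept probe sets. In lists, a gene was read by its kept probe set with the highest mean (8693 genes). The fit was tested on simulated data. The text names all members, the genes of each list that passed and up to 4 others with the largest difference, and the 5 profiles nearest to that of *Ptcra*. *Notch1*, *Tcf12*, *Tcf3*, *Id2*, *Il2ra*, *Il7r*, *Cd4*, *Egr2*, *Trgv4*, *Nfe2* and *Cpa3* lie outside this rule, as do the other marker genes, and were picked with their values in view. The members and lists were chosen with earlier results of these data known.

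Alternatives were other filters (none, and the 60th percentile), quantile normalization once more, centring arrays on their medians, robust variances with a trend, weights for arrays, the replicate number or the hybridization set as a block, 1 value a gene, an adjusted p under 0.1, the study's rank products (9 differences, 100 permutations), and each array left out in turn. Promoter sequences come from RefSeq (GRCm38.p6), and all 10 members matched. No build is named for the arrays, and no gene coordinates are given.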

Additional observations from a re-analysis of the deposited data

How the results depend on the processing

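With 3 arrays a group, the calls moved more than the differences. The number of probe sets that passed was 14 as reported, 360 with array weights, 8 with a replicate block, 102 and 35 by rank products at a share of false positives under 0.1 and 0.01, and 7 to 20 with 1 array left out. *Ptcra* was the 1 member called. It was not called, so that 0 members were, with arrays centred on their medians (difference 1.33, adjusted p = 0.0629), with the replicate number as a block (adjusted p = 0.141), and without SCLtg LMO1tg replicate 1 (0.0749), 2 (0.149) or 3 (0.194) or control replicate 2 (0.182) or 3 (0.0613), a range of 0 to 1 members with 1 array left out. It passed under the other alternatives, rank products at both thresholds included, and its direction was the same in each. Centring moved the median of all probe sets from −0.0006 to 0.05. The arrays of replicate numbers 1, 2 and 3 had residual correlations of −0.63, 0.05 and −0.38, and were not treated as marking pairs. The block changed no other member's call.

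Members near 0 turned sign: *Cd3e* to −0.077 after quantile normalization, *Cd247* to 0.014 with arrays centred and 0.020 with array weights, *Cd3g* to 0.11 and *Lcp2* to 0.089 with array weights. With 1 array left out, *Cd247* ranged from −0.099 without control replicate 3 to 0.032 without SCLtg LMO1tg replicate 1 and was 0.0068 without control replicate 1, and *Lcp2* was 0.15 and 0.25 without the same arrays, down to −0.40 without control replicate 3. With array weights 2 genes of the receptor loci, 2 of the other kinases and adaptors, 2 that follow pre-TCR signalling and 3 regulators passed. The regulators numbered 3 too after quantile normalization, with 1 probe set or the mean of the probe sets a gene, at an adjusted p under 0.1 and by rank products, 2 when blocked on the hybridization set, and 1 to 3 with 1 array left out. *Ptcra* minus the kinases and adaptors was 0.97 within the low and 1.46 within the high hybridization set. The causes were not tested.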
